A study of Saccharomyces cerevisiae with 6 samples.

Results

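The genes described here are 10 Saccharomyces cerevisiae genes of phosphate supply: PHO5, PHO8, PHO11, PHO12, PHO84, PHO89, SPL2, VTC1, VTC3 and PHO4. Their probes were found by gene name in the array's annotation and are 10 of 6256 gene probes. The rule uses no measured value, but the genes were picked with earlier results of these arrays known. Each gene had 1 probe, and all 10 passed the filter on dim probes. Budding yeast carries 3 related acid phosphatase genes in this set, PHO5, PHO11 and PHO12. Their sequences are much alike, those of PHO11 and PHO12 nearly identical, so each probe may also have bound RNA of the others. How much of each signal was shared was not tested.

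In yeast the transcription factor Pho4 drives phosphate-starvation genes together with Pho2. When phosphate is plentiful, the Pho80-Pho85 kinase phosphorylates Pho4 and keeps it out of the nucleus, and when phosphate runs short the inhibitor Pho81 blocks the kinase. PHO5 is also a textbook case of a promoter whose nucleosomes are removed before the TATA-binding protein (TBP) can bind. Mot1, an ATPase that takes TBP off DNA, is the factor at issue in these strains.

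The study compared poly(A)+ RNA from a strain carrying the mutant allele mot1-14 and from 2 bypass strains carrying a TBP variant, TBP-Y185C or TBP-F207L, with RNA from wild-type (WT) MOT1 cells. All 4 strains derive from AY138 after selection on FOA and differ by plasmid, which is pAV20 for WT MOT1, pMOT244 for mot1-14, and pTBP-Y185C or pTBP-F207L for the bypass strains. Cells grew in rich medium (YPD) at 30 °C to an optical density of about 1.0. Each mutant was hybridised against WT on 2 two-colour Agilent arrays with the dyes exchanged: array 1 held mutant RNA in Cy5 and array 2 held it in Cy3. WT entered each array as the reference, so its own spread was not measured apart, and the labels do not give separate cultures for a pair. The p-values therefore speak only of array-to-array spread, and that may be technical.

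The strain genes followed the labels in the bypass strains. MOT1 was lower there by more than 2.5 log2 units, at -3.51 in TBP-Y185C and -2.58 in TBP-F207L. SPT15, which encodes TBP, was 4.08 and 3.63 higher in those bypass strains. In mot1-14, MOT1 was 2.17 higher on the log2 scale and SPT15 read -0.36. The labels do not say what level of either RNA to expect in mot1-14. The first TBP-F207L array stood apart at its dim end. The 10th percentile of signal over background was 3.64 in its WT channel and 7.61 in its mutant channel, against at most 2.14 and 3.52 on the other 5 arrays. MOT1 itself read -1.74 there and -3.41 on the second TBP-F207L array. The dimmest members, PHO4 and PHO89, are therefore also given without the first TBP-F207L array against WT, and PHO89 also between the bypass strains. Each of the 3 slides held both arrays of 1 mutant, so slide and mutant cannot be told apart.

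Phosphate genes did not move as a block in any mutant. Values below are log2 of mutant over WT for each array and then the fitted value over the 6 arrays (limma, Benjamini-Hochberg adjusted over all probes tested, threshold 0.05). In mot1-14, 6 members passed as higher and 4 as lower, in TBP-Y185C 7 as higher and 2 as lower, and in TBP-F207L 7 as higher and 2 as lower. The call itself was common on these arrays: 72.8% of all probes tested passed in mot1-14, and 79.7% and 79.1% did in the TBP-Y185C and TBP-F207L strains, so the 10, 9 and 9 members called were little above it. One of the 6 higher members in mot1-14, SPL2, had arrays of opposite sign. Of all probes, 37.5%, 41.0% and 40.3% passed as higher and 35.2%, 38.8% and 38.8% as lower, in the same order of mutants.

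In each mutant 3 members were higher by 2-fold or more and none was lower by that much, where 4.49%, 6.42% and 4.97% of all probes were that much higher and 0.588%, 1.96% and 2.34% that much lower. These were PHO5, PHO11 and PHO12 in mot1-14 and PHO5, SPL2 and VTC1 in both bypass strains. The 3 in mot1-14 may share signal, so they may not be separate measurements. In the mutant channel of the first mot1-14 array, PHO11 read 7413 units and PHO12 7516. The median log2 ratio of the 10 members was 0.19 in mot1-14 and 0.41 and 0.63 in the TBP-Y185C and TBP-F207L strains, and that of all probes lay from -0.0058 to -4e-04. The median size, regardless of direction, was 0.45, 0.50 and 0.63 for the members against 0.23, 0.29 and 0.28 for all probes.

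**Figure D1:**
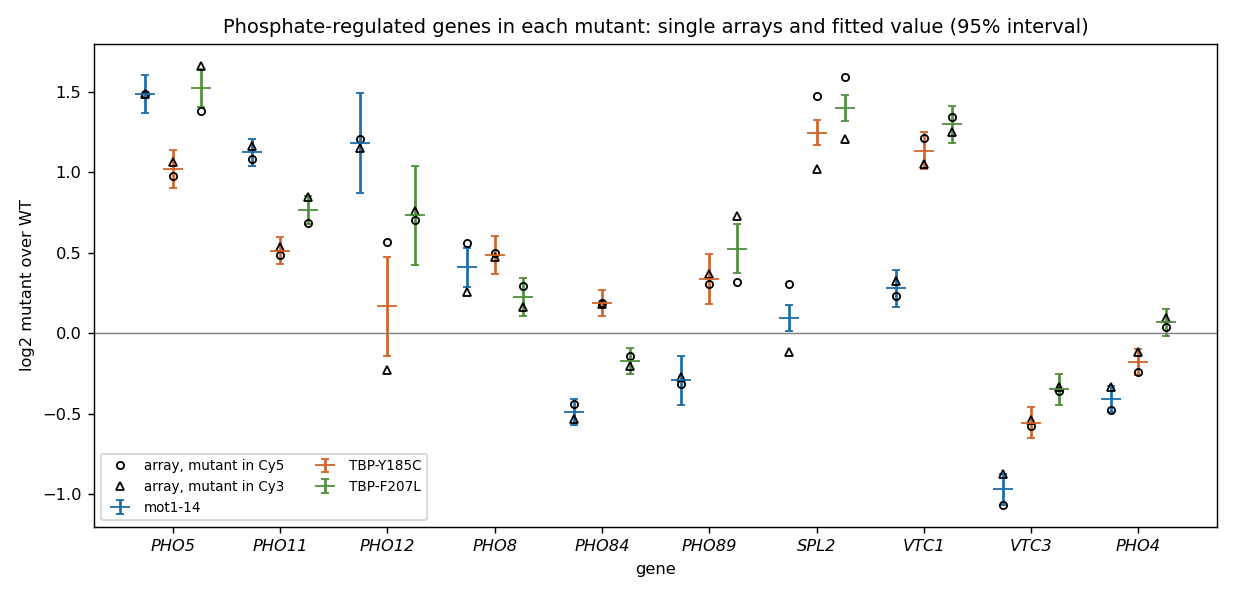
Log2 of mutant over WT for the 10 genes: circles are arrays with the mutant in Cy5, triangles arrays with the mutant in Cy3, and the crossbars with whiskers are the fitted value and its 95% interval, coloured by mutant. By fitted value, PHO5, PHO11 and PHO12 were highest in mot1-14 or TBP-F207L. The fitted values of SPL2 and VTC1 were at 1.13 or above in both TBP strains and at 0.28 or below in mot1-14. VTC3 was below 0 throughout.

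**Figure D2:**
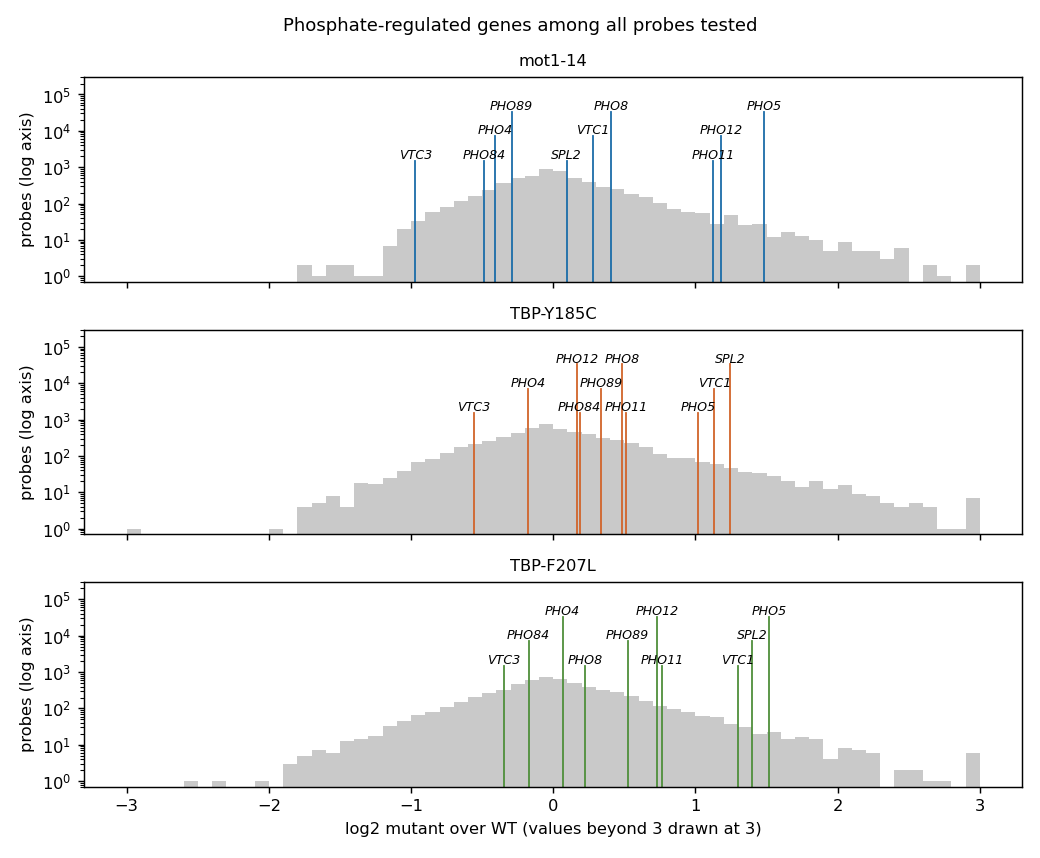
Number of probes (log axis) by log2 of mutant over WT, with the 10 genes marked by lines whose heights carry no value. PHO5 lay at the 98.5th percentile of log2 ratios in mot1-14 and the 98.4th in TBP-F207L, SPL2 at the 98th in TBP-F207L, and VTC3 at the 0.8th in mot1-14.

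PHO5 encodes the main secreted acid phosphatase, which frees phosphate from organic esters outside the cell. Its log2 ratio was 1.48 on both mot1-14 arrays, 0.98 and 1.06 on those of TBP-Y185C and 1.38 and 1.66 on those of TBP-F207L. All 6 values were well above 0, the TBP-Y185C arrays were below the other 4, and the mot1-14 arrays lay between those of TBP-F207L. The fitted rise was 2.80-fold in mot1-14 (log2 1.48, SE 0.05, adjusted p = 7.09e-07), 2.03-fold in TBP-Y185C (adjusted p = 1.95e-06) and 2.87-fold in TBP-F207L (adjusted p = 4.81e-07). Across 16 alternative settings the call held in each mutant, and the fitted value stayed between 0.99 and 1.64 on the log2 scale. Several of these settings, such as leaving out an array of another mutant, cannot move a value against WT, only its p-value.

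PHO11, a second secreted acid phosphatase, was higher in every mutant, most in mot1-14 and least in TBP-Y185C. It read 1.08 and 1.16 on the mot1-14 arrays, 0.49 and 0.54 on those of TBP-Y185C and 0.68 and 0.85 on those of TBP-F207L. The 3 pairs did not overlap. Their order was less firm in other settings. Median centring took the difference between the bypass strains to 0.10 (adjusted p = 0.555). The fit on the TBP-F207L and mot1-14 arrays alone ended the call between those mutants (adjusted p = 0.0596). The fitted rises were 2.18-fold (adjusted p = 5.75e-07), 1.43-fold (adjusted p = 1.01e-05) and 1.70-fold (adjusted p = 1.75e-06).

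PHO12, nearly identical to PHO11, read 1.21 and 1.15 in mot1-14 and 0.70 and 0.76 in TBP-F207L, and its arrays in TBP-Y185C disagreed in sign, at 0.57 and -0.23. It rose 2.27-fold in mot1-14 (adjusted p = 1.40e-04) and 1.66-fold in TBP-F207L (adjusted p = 0.00149). In TBP-Y185C the fitted 0.17 did not pass (SE 0.13, adjusted p = 0.267), while under median centring 0.29 did (adjusted p = 0.000449). The gene's single spot was dim in both channels of the second TBP-Y185C array, at 727 units in the mutant channel and 732 in the WT channel, although it was not marked as an outlier. On the other 5 arrays the mutant channel held 4207 to 7516 units and the WT channel 1816 to 3143. Without that array PHO12 in TBP-Y185C was 0.57 (adjusted p = 0.000512), and without the first it was -0.23 (adjusted p = 0.0186).

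**Figure D3:**
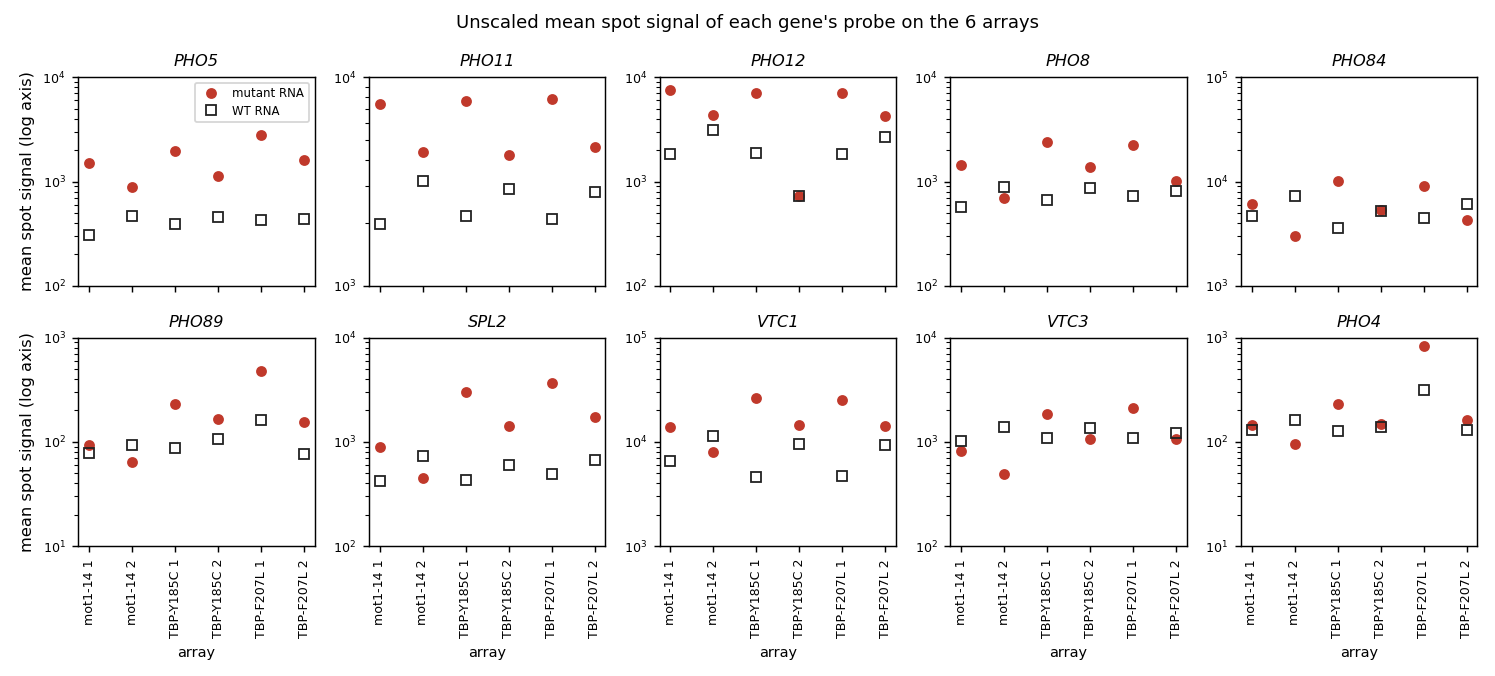
Unscaled mean spot signal (log axis, arbitrary units) of each gene's probe on the 6 arrays, with filled circles for mutant RNA and open squares for WT RNA; array 1 of each pair held the mutant in Cy5. The PHO12 spot was at 727 and 732 units on the second TBP-Y185C array, and PHO4 and PHO89 were brightest in both channels on the first TBP-F207L array.

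PHO8 encodes the vacuolar alkaline phosphatase. It read 0.56 and 0.25 on the mot1-14 arrays, 0.50 and 0.47 on those of TBP-Y185C and 0.29 and 0.16 on those of TBP-F207L. All 6 values were above 0, and the mot1-14 pair spread over more than the whole TBP-Y185C range. The fitted rises were small, 1.33-fold in mot1-14 (adjusted p = 2.40e-04), 1.40-fold in TBP-Y185C (adjusted p = 7.72e-05) and 1.17-fold in TBP-F207L (adjusted p = 0.00445). The TBP-F207L call was lost without the dye term (adjusted p = 0.0546) and in a fit on that mutant's own arrays (adjusted p = 0.053).

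The high-affinity phosphate transporters were both lower in mot1-14, where the acid phosphatases were higher. In TBP-Y185C both were higher, and in TBP-F207L PHO89 was higher and PHO84 lower. PHO84, the proton-coupled importer, read -0.44 and -0.53 on the mot1-14 arrays, 0.19 and 0.18 on those of TBP-Y185C and -0.14 and -0.20 on those of TBP-F207L. The 3 pairs were tight and apart from each other. PHO84 fell 1.40-fold in mot1-14 (log2 -0.49, SE 0.03, adjusted p = 1.44e-05), fell 1.13-fold in TBP-F207L (adjusted p = 0.00258) and rose 1.14-fold in TBP-Y185C (adjusted p = 0.00175). The rise in TBP-Y185C was lost when arrays were centred on the median in place of loess (0.12, adjusted p = 0.155) and without the second TBP-Y185C array (0.15, adjusted p = 0.0545). Median centring also took the TBP-F207L value to -0.41, and the fit on its own arrays ended that call (adjusted p = 0.112).

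PHO89, the sodium-coupled importer, read -0.32 and -0.27 on the mot1-14 arrays, 0.31 and 0.37 on those of TBP-Y185C and 0.32 and 0.73 on those of TBP-F207L. Its spot was dim, at 1.96 to 13.1 times the local background. It fell 1.23-fold in mot1-14 (log2 -0.29, adjusted p = 0.00474), rose 1.26-fold in TBP-Y185C (log2 0.34, adjusted p = 0.00208) and rose 1.44-fold in TBP-F207L (log2 0.52, adjusted p = 2.09e-04). The directions held in all 16 alternatives, though several of these cannot move the value. The sizes did not hold: the scanner's own deposited log ratios gave -0.66, 0.57 and 0.88. Without the first TBP-F207L array the value there was 0.70, and without the second it was 0.35. The mot1-14 call was lost without the second mot1-14 array (-0.20, adjusted p = 0.117) and the TBP-Y185C call without the first TBP-Y185C array (0.25, adjusted p = 0.0724).

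SPL2 encodes an inhibitor of low-affinity phosphate transport that is induced on starvation. It read 0.30 and -0.12 on the mot1-14 arrays, 1.47 and 1.02 on those of TBP-Y185C and 1.59 and 1.20 on those of TBP-F207L. The bypass strains overlapped each other and all 4 of their arrays lay above both mot1-14 arrays. SPL2 rose by 1.25 in TBP-Y185C, or 2.37-fold (SE 0.03, adjusted p = 2.00e-07), and by 1.40 in TBP-F207L, or 2.64-fold (adjusted p = 1.81e-07). Its dye term, 0.21, was the largest in size of the 10 members, and the fit's standard error does not hold the gap between dye orientations that this term takes up. In mot1-14 the fitted 0.09 passed narrowly (adjusted p = 0.0376), but the arrays had opposite signs and the call held in only 5 of 16 alternatives.

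VTC1 and VTC3 encode subunits of the vacuolar transporter chaperone, the complex that makes polyphosphate and passes it into the vacuole, and they went opposite ways. VTC1 read 0.23 and 0.32 on the mot1-14 arrays, 1.21 and 1.05 on those of TBP-Y185C and 1.34 and 1.25 on those of TBP-F207L. VTC3 read -1.06 and -0.88 on the mot1-14 arrays, -0.57 and -0.54 on those of TBP-Y185C and -0.36 and -0.33 on those of TBP-F207L. No pair of either gene overlapped another, and in both genes the mot1-14 arrays were lowest and the TBP-F207L arrays highest. For VTC1 the order of the bypass strains turned under median centring, at 0.91 in TBP-Y185C and 0.85 in TBP-F207L.

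VTC1 rose 1.21-fold in mot1-14 (adjusted p = 0.00145), 2.19-fold in TBP-Y185C (adjusted p = 1.02e-06) and 2.46-fold in TBP-F207L (adjusted p = 6.95e-07). The mot1-14 call was lost without the second mot1-14 array (0.17, adjusted p = 0.0511), and median centring took the mot1-14 value from 0.28 to 0.18 and the TBP-F207L value from 1.30 to 0.85. VTC3 fell 1.96-fold in mot1-14 (log2 -0.97, SE 0.04, adjusted p = 1.58e-06), 1.47-fold in TBP-Y185C (adjusted p = 1.25e-05) and 1.27-fold in TBP-F207L (adjusted p = 1.63e-04), and kept its call in all 16 alternatives in each mutant. VTC2 and VTC4, listed below among other starvation targets, fell as VTC3 did: VTC4, the polyphosphate-making subunit, read -0.83, -0.55 and -0.64 in mot1-14, TBP-Y185C and TBP-F207L, and VTC2 read -0.74, -0.43 and -0.34, all passed. VTC5, an accessory subunit named here after its values were seen, read 0.25, -0.04 and 0.16, of which the TBP-Y185C value did not pass (adjusted p = 0.396).

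PHO4, the transcription factor of the pathway, read -0.48 and -0.34 on the mot1-14 arrays, -0.24 and -0.11 on those of TBP-Y185C and 0.04 and 0.10 on those of TBP-F207L. The pairs did not overlap, and its spot was dim at 2.91 to 21.9 times background. PHO4 fell 1.33-fold in mot1-14 (log2 -0.41, adjusted p = 3.54e-05) and 1.13-fold in TBP-Y185C (log2 -0.18, adjusted p = 0.00212), and its 0.07 in TBP-F207L did not pass (adjusted p = 0.112; 0.03 without the first TBP-F207L array). The deposited log ratios gave the larger falls of -0.68 and -0.30. The fit on the TBP-Y185C arrays alone ended that call (adjusted p = 0.0602).

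The study asked which genes that changed in mot1-14 came back to the WT level in the bypass strains and which changed anew. Distance from WT is given by the values above. The direct difference between mutants, fitted on the same 6 arrays, shows on the log2 scale whether a member's level differed between strains, not whether it returned to WT. All 3 contrasts share the WT reference. TBP-Y185C differed from mot1-14 in 9 of 10 members, 6 higher and 3 lower, where 49.7% of all probes passed, 26.0% as higher and 23.8% as lower.

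The acid phosphatases were lower in TBP-Y185C than in mot1-14, by -0.46 for PHO5 (adjusted p = 0.00214), -0.61 for PHO11 (adjusted p = 2.12e-04) and -1.01 for PHO12 (adjusted p = 0.0042, and -0.61 without the second TBP-Y185C array, where its spot was dim). PHO5 and PHO11 nevertheless stayed above WT in TBP-Y185C. Higher in TBP-Y185C than in mot1-14 were SPL2 by 1.15, VTC1 by 0.85, PHO84 by 0.67, PHO89 by 0.63, VTC3 by 0.41 and PHO4 by 0.23. The PHO8 difference of 0.08 did not pass, with a 95% interval from -0.09 to 0.24. The PHO4 difference was lost under median centring (0.19, adjusted p = 0.182), with no dye term (adjusted p = 0.127), in the fit on the arrays of these 2 mutants alone (adjusted p = 0.158), when the first mot1-14 array was left out (0.20, adjusted p = 0.0708) and when the second TBP-Y185C array was (0.21, adjusted p = 0.0598). That smaller fit also ended the PHO12 call (adjusted p = 0.0591). SPL2 was the member higher by 2-fold or more and PHO12 the member lower by as much, where 0.604% and 0.588% of all probes were. The deposited log ratios gave larger differences of 1.23 for PHO89 and 0.38 for PHO4.

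TBP-F207L differed from mot1-14 in 7 members, 6 higher and 1 lower, where 58.3% of all probes passed, 29.0% as higher and 29.3% as lower. SPL2 was 1.30 higher, VTC1 1.02, PHO89 0.82, VTC3 0.62, PHO4 0.47 and PHO84 0.31, and PHO11 was lower by -0.36. PHO5 differed by 0.04, with a 95% interval from -0.13 to 0.21, so TBP-F207L kept a PHO5 level within that range of mot1-14. PHO8 and PHO12 did not pass (-0.18, adjusted p = 0.0607, and -0.45, adjusted p = 0.0727), and both calls turned with the array left out: PHO8 passed at -0.30 without the second mot1-14 array and PHO12 at -0.69 without the second TBP-F207L array, and either passed with either TBP-Y185C array left out. The PHO84 difference was lost under median centring (0.14, adjusted p = 0.308), which also took VTC1 to 0.67. The fit on these 4 arrays alone ended the PHO84 and PHO11 calls (adjusted p = 0.0613 and 0.0596) and gained that of PHO12 (adjusted p = 0.0261), as median centring did (-0.51, adjusted p = 5.25e-05). SPL2 and VTC1 were higher by 2-fold or more, and no member was lower by that much, where 0.506% and 0.996% of all probes were. The deposited log ratios gave 1.54 for PHO89 and 0.75 for PHO4, and the lowest values over the 16 alternatives were 0.64 and 0.44.

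The bypass strains differed from each other in 7 members, 5 higher in TBP-F207L and 2 lower, where 37.2% of all probes passed, 15.4% as higher and 21.8% as lower. PHO5 was 0.50 higher in TBP-F207L (adjusted p = 0.00293), PHO11 0.25, PHO4 0.25, VTC3 0.21 and SPL2 0.15, while PHO84 was lower by -0.36 (adjusted p = 0.00253) and PHO8 by -0.26. Without the dye term, and in a fit on the arrays of both bypass strains alone, none of the 7 passed. No member differed by 2-fold in either direction, where 0.0481% of all probes were that much higher and 0.160% that much lower. The SPL2 call held in 3 of 16 alternatives and the VTC3 call in 7, and median centring took PHO11 to 0.10 (adjusted p = 0.555). PHO12 (0.56, adjusted p = 0.0501), PHO89 (0.19, 95% interval from -0.03 to 0.40) and VTC1 (0.16, from 0.00 to 0.33) did not pass. PHO12 passed in 6 of 16 alternatives, and was 0.17 without the second TBP-Y185C array, which held its dim spot (adjusted p = 0.158), and 0.96 without the first (adjusted p = 0.00839). It was 0.81 without the first TBP-F207L array (adjusted p = 0.00155) and 0.32 without the second (adjusted p = 0.113). PHO89 passed at 0.36 without the first TBP-F207L array (adjusted p = 0.00133) and was 0.0094 without the second. Without the second TBP-Y185C array 2 of the 10 members passed, which were PHO5 and PHO84.

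**Figure D4:**
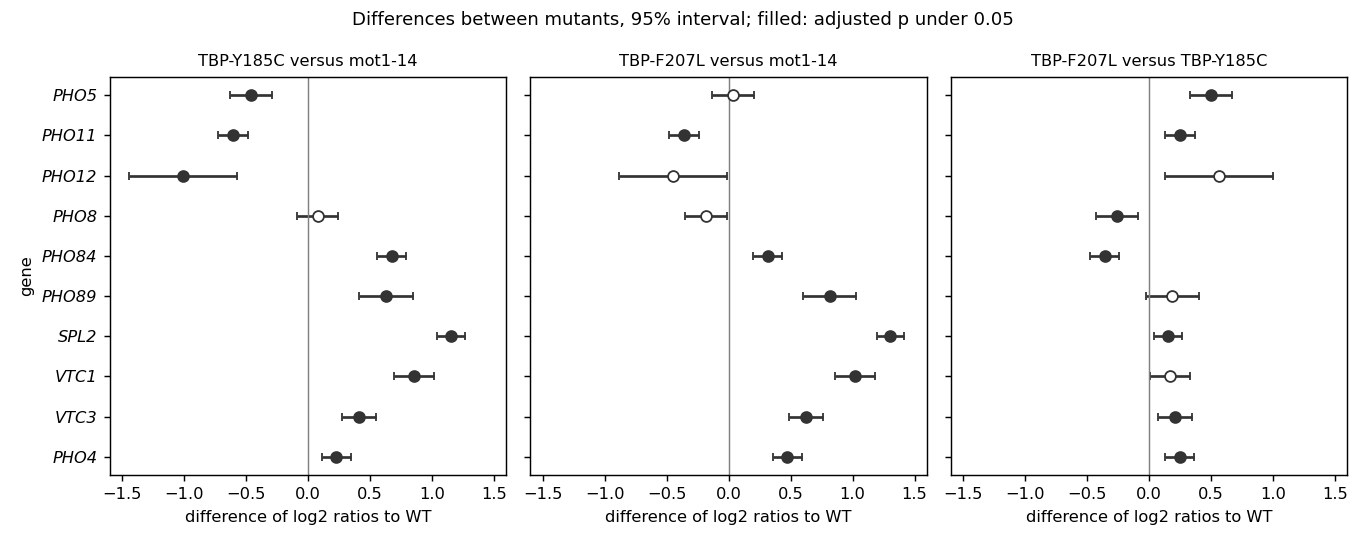
Difference of log2 ratios to WT between mutants for the 10 genes, with 95% intervals; filled points passed at an adjusted p under 0.05 and open points did not. SPL2, VTC1, PHO89 and PHO84 lie to the right of 0 in both comparisons with mot1-14, and PHO11 lies to the left in both.

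The rest of the pathway was read from 4 lists with 38 genes outside the 10 members. PHO81, PHO86 and PPN1 each stand on 2 lists. Counts of list genes called stand beside the same shares of all probes as above, 72.8%, 79.7% and 79.1% called in mot1-14, TBP-Y185C and TBP-F207L, so most genes of any list would pass. Among 12 other phosphate-starvation targets, 5 passed as higher and 5 as lower in mot1-14, and 7 as higher and 4 as lower in each bypass strain, against 37.5%, 41.0% and 40.3% of all probes higher and 35.2%, 38.8% and 38.8% lower. The list's median was 0.02, 0.53 and 0.57 in mot1-14, TBP-Y185C and TBP-F207L.

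The largest rise belonged to PHM8, a soluble phosphatase of lysophosphatidic acid and nucleotides. It read 2.09 and 2.35 on the mot1-14 arrays, 2.57 and 2.72 on those of TBP-Y185C and 2.32 and 2.49 on those of TBP-F207L, fitted rises of 4.67-fold, 6.26-fold and 5.31-fold. GPP2, a glycerol-phosphate phosphatase also known from osmotic stress, rose by 1.39, 1.35 and 0.87 on the log2 scale. PHM7, a predicted membrane protein, rose by 0.58, 1.13 and 0.57. Its spot was dim, with WT signal down to 2.54 times background, and read 0.40 and 0.74 on the TBP-F207L arrays.

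GIT1, which encodes a glycerophosphodiester permease, rose by 0.65, 0.73 and 0.80, and GDE1, which encodes an enzyme that cleaves glycerophosphocholine, by 0.60, 0.81 and 1.09. GIT1 was dim, with WT signal down to 2.19 times background, and read 0.56 and 1.04 on the TBP-F207L arrays. PHO81, the inhibitor of Pho80-Pho85, fell by 0.69, 0.28 and 0.16 on the log2 scale.

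**Figure D5:**
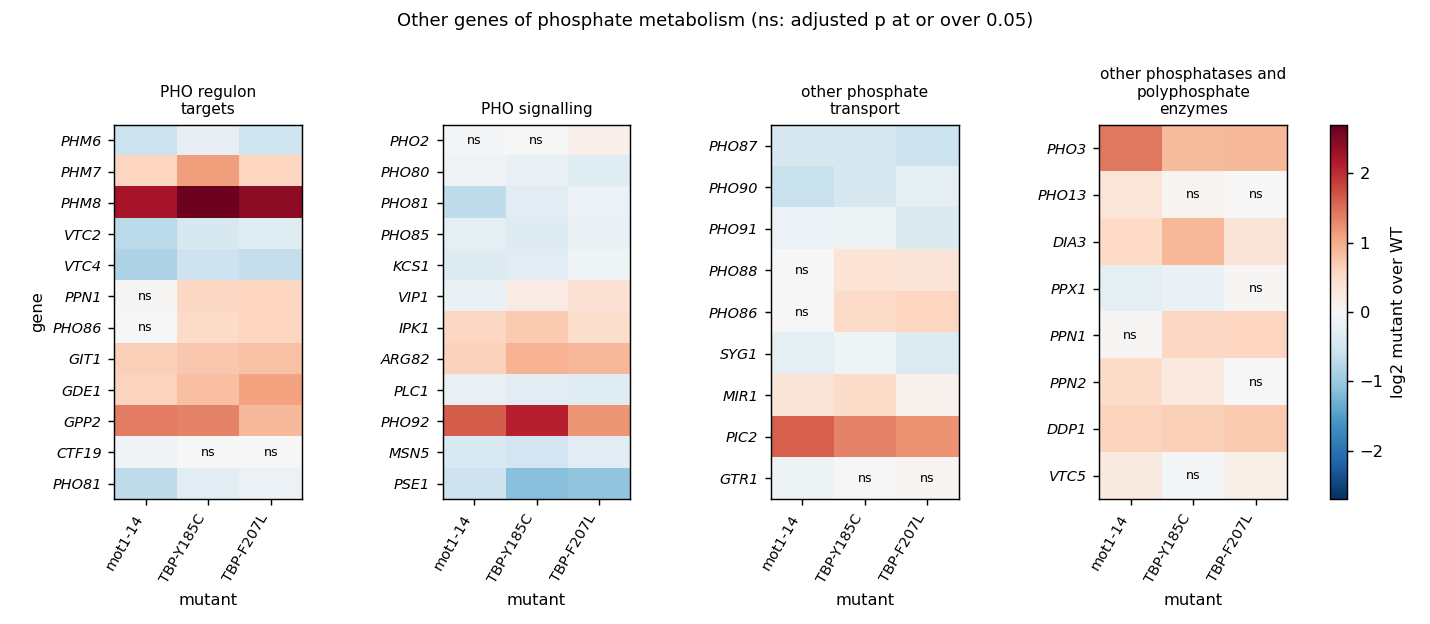
Log2 of mutant over WT (colour scale) for the genes of 4 pathway lists in mot1-14, TBP-Y185C and TBP-F207L; "ns" marks values that did not pass at an adjusted p under 0.05. PHM8, PHO92 and PIC2 were higher by more than 1 in all 3 mutants, VTC2 and VTC4 were lower in all 3, and PSE1 was lower by more than 1 in both TBP strains.

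Of 12 phosphate-signalling genes, 3 passed as higher and 8 as lower in mot1-14. These counts were 4 and 7 for TBP-Y185C, then 5 and 7 for TBP-F207L, with medians of -0.20, -0.24 and -0.14. The shares of all probes called were 72.8%, 79.7% and 79.1%, with 37.5%, 41.0% and 40.3% higher and 35.2%, 38.8% and 38.8% lower. PHO92, which encodes an RNA-binding protein reported to act on PHO4 mRNA, rose by 1.63, 2.09 and 1.19. Its WT signal was as low as 1.42 times background, and its TBP-F207L arrays read 0.82 and 1.57, the lower on the first array. PSE1, the importin that carries Pho4 into the nucleus, fell by 0.57, 1.13 and 1.07, and MSN5, its exportin, fell by 0.40, 0.52 and 0.29. The inositol polyphosphate kinase genes differed in direction: ARG82 (0.63, 0.95 and 0.90) and IPK1 (0.55, 0.71 and 0.48) rose, KCS1 fell by 0.36, 0.28 and 0.12, and VIP1 fell by 0.19 in mot1-14 and rose by 0.23 and 0.38 in the bypass strains. IPK1 was dim as well, with WT signal down to 2.31 times background, and read 0.32 and 0.64 on the TBP-F207L arrays. KCS1 and VIP1 were named after their values were seen.

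Of 9 genes of other phosphate transport, 2 passed as higher and 5 as lower in mot1-14, and 4 as higher and 4 as lower in each bypass strain. Of all probes, 72.8%, 79.7% and 79.1% were called, with 37.5%, 41.0% and 40.3% higher and 35.2%, 38.8% and 38.8% lower. PHO90 and PHO87, low-affinity importers, fell, PHO90 by 0.61, 0.42 and 0.26 and PHO87 by 0.44, 0.45 and 0.57. PIC2, a mitochondrial carrier of copper and phosphate, rose by 1.61, 1.33 and 1.22, and MIR1, the main mitochondrial phosphate carrier, by 0.35, 0.50 and 0.12. PHO86, needed for PHO84 to leave the endoplasmic reticulum, read 0.00 in mot1-14 (adjusted p = 0.997) and rose by 0.51 and 0.57 in the bypass strains.

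Of 8 other phosphatases and polyphosphate enzymes, 6 passed as higher and 1 as lower in mot1-14. These counts were 5 and 1 for TBP-Y185C, then 5 and 0 for TBP-F207L, where 37.5%, 41.0% and 40.3% of all probes passed as higher and 35.2%, 38.8% and 38.8% as lower in the 3 mutants. PHO3, the constitutive acid phosphatase that thiamine represses and that is closely related to PHO5, read 1.44 and 1.39 on the mot1-14 arrays, 0.87 and 0.82 on those of TBP-Y185C and 0.83 and 0.90 on those of TBP-F207L. It rose 2.67-fold, 1.79-fold and 1.83-fold. Its probe may have bound PHO5 RNA, and the PHO5 probe may have bound PHO3 RNA. DIA3, another relative of the acid phosphatases, rose by 0.55, 0.90 and 0.35, and DDP1, a polyphosphate and diphosphoinositol phosphatase, by 0.60, 0.65 and 0.72. DIA3 was dim, with WT signal down to 1.76 times background, and read 0.27 and 0.43 on the TBP-F207L arrays. The polyphosphatase PPN1 read 0.03 in mot1-14 (adjusted p = 0.42) and rose by 0.56 and 0.57 in the bypass strains.

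Genes next to the members on the chromosome did not share their direction throughout. PHO3 lies beside PHO5 on the same strand and rose with it, while PBY1 on PHO5's other side fell by 0.31, 0.40 and 0.29. IMD2, next to PHO12 and an IMP dehydrogenase gene, fell by 1.07, 1.56 and 1.74. ALD5, next to VTC1, fell by 0.64 in mot1-14 and rose by 0.73 and 0.67 in the bypass strains, and ARO9, next to SPL2, rose by 1.61, 1.95 and 1.51. These neighbours were picked after their values were seen.

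For the 5 members that reached 1 on the log2 scale in a mutant, the 3 probes with the nearest values over the 6 arrays were found among 6126 probes by the root mean square (RMS) difference of log2 ratios. PHO5 was nearest to CNL1 (0.19), ROM1 (0.22) and SRL3 (0.26). PHO11 was nearest to SOM1 (0.10), YGL072C (0.17) and SOL3 (0.17). PHO12 was nearest to MFA2 (0.24), YPL245W (0.30) and CYC1 (0.31). SPL2 was nearest to VTC1 (0.24), then RPN4 (0.28) and GDH1 (0.28). VTC1 was nearest to GDH1 (0.11), POR1 (0.12) and RPN4 (0.13). No acid phosphatase was among the 3 nearest of another, but the search included the dim PHO12 spot. On that array, the second of TBP-Y185C, PHO11 read 0.54 and PHO12 -0.23, and their RMS difference over the 6 arrays was 0.32. On the other arrays PHO11 and PHO12 lay close, at 1.08 and 1.21, 1.16 and 1.15, 0.49 and 0.57, 0.68 and 0.70, and 0.85 and 0.76. The probes nearest to PHO12 were matched to the dim value too, and the search was not run without it.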

How the data were processed

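The scanner files were written by Agilent Feature Extraction 7.5.1, per the file headers, and hold mean and background intensity for each spot, which the authors deposited unscaled. They also hold the scanner's log10 ratio of red over green and its p-value, both deposited as the software wrote them and per the file headers. The deposited series table holds log2 red over green, keyed by spot number and not turned to mutant over WT (as-deposited column medians from -0.0258 to 0.0247). No genome build is given in the sources used here, and a RefSeq table served only for current symbols and neighbouring genes (5756 of 6256 systematic names matched).

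Signals were background-corrected (normexp, offset 50) and loess-normalised within each array (span 0.3, control spots weight 0) in limma 3.58.1 under R 4.3.3. Spots marked as outliers were dropped, at most 3.22% on an array, and spots of a probe averaged. Probes were kept where 2 or more arrays had a channel well above background (6232, with 24 left out). The number of arrays limits the precision. A linear model with 3 mutant coefficients and a dye intercept was fitted over all 6 arrays and moderated with eBayes (2 residual degrees of freedom, prior 4.81). Loess centres each array, so a shift shared by all genes cannot be seen. Turned to mutant over WT, the dye-swapped arrays of each mutant had correlations over probes of 0.93, 0.96 and 0.94. The array number of a pair stands for its dye orientation, so the dye intercept serves as the replicate block. The fit was tested on data simulated from the model itself with few changed genes. Most probes passed on the real arrays, so that test does not bear on the calls made here.

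The members and lists were chosen with earlier results of these data known. Named were all 10 members, list genes that passed with a log2 size of at least 0.5 in a mutant (at most 8 a list), the 3 nearest probes of members reaching 1, and MOT1 and SPT15. No sequence was used here. Alternatives covered background correction, scaling, the deposited ratios and table, the filter, marked spots, the dye term, the arrays in the fit and each array left out. A mutant's value against WT cannot be moved by the filter, the dye term, a fit on its own arrays or leaving out another mutant's array. The deposited ratios and table correlated at 0.9989 or more on each array.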

Additional observations from a re-analysis of the deposited data

Results flagged for a closer look

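Both phosphate importers passed in opposite directions in different mutants, and the difference between the mutants passed as well. PHO84 was lower than WT in mot1-14 and higher in TBP-Y185C, a difference of 0.67 on the log2 scale (adjusted p = 1.43e-04), and it was lower again in TBP-F207L, which differed from TBP-Y185C by -0.36 (adjusted p = 0.00253). PHO89 was lower in mot1-14 and higher in both bypass strains, by 0.63 for TBP-Y185C against mot1-14 (adjusted p = 0.00172) and 0.82 for TBP-F207L against mot1-14 (adjusted p = 4.11e-04). The PHO84 rise in TBP-Y185C did not pass under median centring, and its fall in TBP-F207L did not pass in the fit on that mutant's own arrays (adjusted p = 0.112). The PHO84 difference between the bypass strains was lost without the dye term (adjusted p = 0.0638) and on their arrays alone (adjusted p = 0.111). PHO89 was dim on every array. It was -0.20 in mot1-14 without the second mot1-14 array, and 0.25 in TBP-Y185C without the first TBP-Y185C array. With 2 arrays in a group, single arrays could not be tested as outliers.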

How the results depend on the processing

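Of 960 recomputed member values, 871 stayed on the same side of the threshold, and those that passed kept their direction. A value that did not pass in either setting counts as kept, also where its sign changed. One such value was PHO8 in TBP-Y185C against mot1-14, from 0.08 to -0.04 without the second mot1-14 array. The 871 also include settings that cannot move a value against WT. Another 71 no longer passed and 17 newly passed. Only 1 turned sign with a pass in a setting: PHO12 in TBP-Y185C, -0.23 without the first TBP-Y185C array and 0.57 without the second, from 0.17. TBP-F207L against TBP-Y185C depended most on the setting. Its 7 members called became 4 with a normexp offset of 10, 3 with the deposited log ratios and 3 with the series table, and its 2316 probes called became 1359 with median centring, 1408 with the deposited ratios and 1457 with the series table. With no dye intercept, that is with no replicate block, it called 115 probes and 0 members. The same fit called 965 probes in place of 3046 for TBP-Y185C against mot1-14 and 1582 in place of 3572 for TBP-F207L against mot1-14. With only the arrays of the mutants compared, these 3 limma comparisons called 0 (1276 at an unadjusted p under 0.05), 890 and 1056 probes, and 0 members in the first. The cause was not tested.

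Leaving out 1 array gave 7 to 10 members and 3523 to 4625 probes called in mot1-14, 9 to 9 and 4051 to 5122 in TBP-Y185C, and 9 to 9 and 4237 to 4864 in TBP-F207L. It gave 8 to 9 and 1796 to 3515 for TBP-Y185C against mot1-14, 7 to 9 and 2516 to 3516 for TBP-F207L against mot1-14, and 2 to 7 and 920 to 2303 for TBP-F207L against TBP-Y185C. A slide block was not run because no slide held more than 1 mutant. Among the members, signal over background limits PHO89 and PHO4 most. Some list genes, such as PHO92 and DIA3, were dimmer still in WT RNA.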
